A study of Mus musculus with 6 samples.

Results

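The 10 genes described here encode bone morphogenetic protein (BMP) ligands, BMP receptors and BMP antagonists. They are the ligands *Bmp2*, *Bmp4*, *Bmp5*, *Bmp6* and *Bmp7*, the receptors *Bmpr1a*, *Bmpr1b* and *Bmpr2*, and the antagonists *Nog* and *Grem1*. They were taken by gene name from a table of 38553 genes, and each name matched 1 gene. RNA-Seq was performed on poly(A)+ RNA from microdissected craniofacial tissue of mouse embryos at E12.5, with 3 independent biological replicates in each group. Whether a replicate was 1 embryo or a pool is not given in the sources used here. Controls were *Rbfox2 flox/flox* and mutants were *Pax3Cre/+:Rbfox2 flox/flox*, so the floxed *Rbfox2* alleles were present in both groups and the Cre allele only in the mutants. *Rbfox2* encodes an RNA-binding protein that regulates splicing and binds UGCAUG. *Pax3Cre/+* is a knock-in that removes *Rbfox2* in the neural crest, and also in paraxial mesoderm and somite derivatives, so the mutant differs from the control by more than a neural crest deletion. The animals were of mixed genetic background, and the tissue was not sorted, so epithelium, blood, vessels and neural tissue contributed RNA in both groups. The comparison asks how much the amounts of these transcripts differ between the mutants and the controls. Cre and its insertion at *Pax3* were present only in the mutants, so their part cannot be told apart from that of the *Rbfox2* deletion.

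BMPs are secreted dimers of the TGF-β family. A ligand joins type I receptors, such as those encoded by *Bmpr1a* and *Bmpr1b*, to a type II receptor such as the one encoded by *Bmpr2*. The type II receptor then phosphorylates the type I receptor, which phosphorylates Smad1, Smad5 and Smad9, and these enter the nucleus with Smad4 and act on targets such as the *Id* and *Msx* genes. Noggin, Gremlin1 and Chordin are secreted proteins that bind BMPs and keep them from their receptors. In the developing face, BMP signals pass between epithelium and neural crest-derived mesenchyme and take part in the growth of the jaw and palate, tooth development and bone formation.

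The data show small differences in these genes between *Rbfox2* mutants and controls, none of which passed the test across all genes. *Bmp7* averaged 15.6 ± 1.19 FPKM in mutants and 17.4 ± 1.11 FPKM in controls (SD, n = 3 each), and *Nog* 4.29 ± 0.27 FPKM and 5.12 ± 0.519 FPKM. *Nog* was the only gene of the 10 whose groups did not overlap, with every mutant below every control. Groups did not overlap in 6.08% of the 14978 genes with a mean FPKM over 0.5, and in 3.21% with the mutants lower. *Bmpr1a*, the most abundant of the 10, stood at 97.5% of its control mean in mutants. *Chrd*, which encodes the antagonist Chordin and came from a list of 50 further genes of the pathway, averaged 67.8% of its control mean. It was the only 1 of the 42 tested with an unadjusted limma p under 0.05, against 2.26% of all genes. This count is near that share, and *Chrd* did not pass the adjusted threshold. In bulk tissue, fewer cells of a type and less RNA per cell cannot be told apart.

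FPKM scales the fragments of each gene by gene length and by library size, so levels can be compared between genes. The FPKM values summed to between 528123 and 590174 per sample. How many reads stand behind any value is unknown. Genes were compared on log2(FPKM + 1), a scale on which the change of a low gene is understated, with limma and Benjamini-Hochberg adjustment over all genes tested. The fit named in the design was restricted to 10061 genes that exceeded 5 FPKM in every control or in every mutant. *Bmp4*, *Bmp7*, *Bmpr1a*, *Bmpr1b* and *Bmpr2* passed this filter, *Bmpr1b* only through the mutants, and the other 5 genes lay below it. A wider fit used the 14978 genes with a mean FPKM over 0.5 over all 6 samples, which held all 10. *Rbfox2* itself read 58.4, 65.0 and 61.3 FPKM in control replicates 1, 2 and 3 and 38.1, 36.3 and 34.3 FPKM in mutant replicates 1, 2 and 3. These values span the whole gene, with undeleted exons and cells without Cre included, and the mutants stood at 58.8% of the controls. *Pax3*, which carries the Cre insertion in mutants, averaged 10.6 ± 1.59 FPKM in controls and 8.19 ± 0.536 FPKM in mutants (n = 3 each), with no overlap. Replicate 1 of each group was distant from the other 4 samples, at -19.1 and -17.0 against 7.55 to 11.0 on the first principal component. That component held 54.7% of the variance, so values from replicates 2 and 3 alone are also given for the 10 genes and for *Id4*.

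Among the ligands, *Bmp4* and *Bmp7* were far more abundant than *Bmp2*, *Bmp5* and *Bmp6*. *Bmp4* (GRCm38 chr14:46383520-46390669, minus strand) is expressed in distal facial epithelium and mesenchyme and is tied to *Msx1* in tooth and palate development. It read 19.7, 20.8 and 22.8 FPKM in control replicates 1, 2 and 3 and 19.6, 18.1 and 21.2 FPKM in the mutants. Each mutant was below the control of the same number, but the groups overlapped, and the first pair was nearly equal. The log2 fold change of *Bmp4* was -0.10 (SE 0.091, 95% interval -0.31 to 0.11), with an exact two-sided permutation p of 0.4 (n = 3 each). With 3 samples against 3, that test cannot give a p below 0.10. Replicates 2 and 3 alone gave a log2 fold change of -0.14 (SE 0.0955) for *Bmp4*.

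*Bmp7* (chr2:172868012-172940321, minus strand) is expressed widely in facial epithelium and mesenchyme, and its product can pair with those of *Bmp2* and *Bmp4* in heterodimers. Control replicates 1, 2 and 3 had 18.7, 17.1 and 16.5 FPKM of *Bmp7*, and the mutants 17.0, 14.7 and 15.2 FPKM. Mutant replicate 1 lay between control replicates 2 and 3, and the other mutants lay below all controls. The log2 fold change was -0.15 (SE 0.0874, 95% interval -0.35 to 0.06). The exact permutation p was 0.2 (n = 3 each), and the p adjusted over all genes by limma was 1.0. The difference was of much the same size at each replicate number, with log2 differences of -0.13, -0.20 and -0.11. With the replicate number as a block, the standard error of *Bmp7* was 0.0595 and its unadjusted limma p 0.048, while the adjusted p was 0.825. No source ties the replicate numbers into pairs, which limits this and all later values from the block. Replicates 2 and 3 alone gave a log2 fold change of -0.16 (SE 0.0711) for *Bmp7*.

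*Bmp7* also had the densest set of Rbfox hexamers in its messenger RNA. The hexamer TGCATG, the DNA form of UGCAUG, was searched on the transcript strand of the longest protein-coding GENCODE M21 transcript of each gene, with overlapping matches counted. In *Bmp7* (a transcript of 3670 bases) it occurred 6 times, all in the 3′ UTR, in a stretch rich in CA repeats. Windows from 3 of these matches are given below on the minus strand, with 10 bases on each side and the hexamer in capitals, because no other gene of the 10 carried more than 3 matches.
Bmp7 3′ UTR, chr2:172869431-172869436: gagggaggtaTGCATGcacacacaca
Bmp7 3′ UTR, chr2:172869335-172869340: cacacgcacaTGCATGcatacacaca
Bmp7 3′ UTR, chr2:172869195-172869200: cacgcacgcaTGCATGcacacacaca
Bmpr1b coding sequence, chr3:141842930-141842935: agaaattgtgTGCATGaagaagttac

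The *Bmpr1b* window is shown because it was the only match in a coding sequence. Its transcript held 2 more matches in the 3′ UTR, and those of *Bmpr2* and *Grem1* held 2 each, also in the 3′ UTR. The remaining 6 genes had none. The hexamer was thus in 4 of 10 BMP transcripts (40%), against 7703 of 13715 transcripts of the genes in the wider fit (56.2%), and its density was 0.278 and 0.285 per kb. Among 1752 transcripts within 10% of the length of *Bmp7*, 62.2% held at least 1 match. For *Nog*, with a short transcript of 1695 bases and no match, the share at its length was 33.6%. Matches in a transcript do not show binding, and introns, where much of the splicing regulation by Rbfox proteins lies, were not analysed here.

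*Bmp2*, *Bmp5* and *Bmp6* lay between 2.31 and 5.31 FPKM in every sample. *Bmp2* (chr2:133552159-133562885, plus strand), which like *Bmp4* promotes bone and cartilage formation, read 4.15, 5.31 and 3.71 FPKM in control replicates 1, 2 and 3 and 4.21, 3.61 and 2.94 FPKM in mutants. The first pair was equal to within 0.0148 on the log2 scale, and the others differed by -0.45 and -0.26, so the mean of -0.23 (SE 0.151, 95% interval -0.59 to 0.12) came from replicates 2 and 3, which alone gave -0.36 (SE 0.172). *Bmp2* had the most negative estimate of the 10 genes, with 81.6% of the control mean in mutants, and an exact permutation p of 0.3 (n = 3 each). The groups overlapped.

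*Bmp5* (chr9:75775364-75900310, plus strand) encodes a ligand close in sequence to Bmp6 and Bmp7 and known for its part in ear and skeletal shape. It had 2.43, 4.64 and 3.20 FPKM in controls and 3.12, 3.21 and 3.36 FPKM in mutants. The controls enclosed all mutants, and the log2 fold change was -0.03 (SE 0.177), or -0.18 (SE 0.161) in replicates 2 and 3 alone. *Bmp6* (chr13:38345107-38500302, plus strand), known for cartilage maturation and for iron control in the liver, had 3.76, 3.53 and 2.58 FPKM in controls and 3.26, 3.27 and 2.31 FPKM in mutants. Each *Bmp6* pair was lower in the mutant, but the third replicates of both groups lay below the rest, and the log2 fold change of -0.12 (SE 0.155) was within that spread. Replicates 2 and 3 alone gave -0.10 (SE 0.18) for *Bmp6*. *Bmp6* overlaps *Txndc5*, a gene on the opposite strand at 81.3 to 98.1 FPKM. The libraries were stranded, but how reads were assigned to genes is not given in the sources used here, so the low values of *Bmp6* are uncertain.

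The 3 receptors were close to their control levels on average. *Bmpr1a* (chr14:34410734-34503341, minus strand), a type I receptor used in the facial mesenchyme, read 44.0, 48.0 and 49.1 FPKM in controls and 45.6, 45.7 and 46.2 FPKM in mutants. The mutants lay within the control range, and the log2 fold change of -0.03 had a 95% interval of -0.21 to 0.14 (SE 0.0739). Replicates 2 and 3 alone gave -0.08 (SE 0.0601) for *Bmpr1a*. *Bmpr1b* (chr3:141837136-142169425, minus strand), a type I receptor known for cartilage condensations, had 4.30, 5.10 and 5.18 FPKM in controls and 5.16, 5.12 and 5.09 FPKM in mutants. It was the only gene of the 10 with a mean above that of the controls, at 105%. The log2 fold change of 0.07 (SE 0.0942 in the wider fit, whose filter is blind to group) came from control replicate 1. Without that sample the difference was -0.005. Replicates 2 and 3 alone gave -0.01 (SE 0.0915) for *Bmpr1b*.

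*Bmpr2* (chr1:59763400-59879014, plus strand), the type II receptor that also serves in vessels, had 10.2, 17.0 and 15.4 FPKM in controls and 11.9, 13.3 and 14.9 FPKM in mutants. The first replicates were the lowest sample of each group. In *Bmpr2* the log2 fold change was -0.06 (SE 0.182, 95% interval -0.48 to 0.37), the widest interval of the 10 genes, and the first pair differed by 0.20 and the second by -0.33. In replicates 2 and 3 alone it was -0.18 (SE 0.0901, adjusted p by limma 0.494). *Bmp5*, *Bmpr1a*, *Bmpr2* and *Grem1* had the same lowest 2 samples, the first replicates of both groups.

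The antagonists were low in level, and both means were below those of the controls. *Nog* (chr11:89300638-89302332, minus strand) encodes Noggin, which binds Bmp2, Bmp4 and, less tightly, Bmp7. It had 5.72, 4.85 and 4.80 FPKM in control replicates 1, 2 and 3 and 4.59, 4.07 and 4.20 FPKM in mutants. All mutants lay below all controls, and the highest mutant and the lowest control were separated by less than the range within the controls. The log2 fold change of *Nog* was -0.21 (SE 0.0989, 95% interval -0.44 to 0.02), with an exact permutation p of 0.1 (n = 3 each), the smallest this design allows. The pairs differed by -0.27, -0.21 and -0.16, and the unadjusted limma p was 0.0714 without and 0.0434 with the replicate block (adjusted p 1.0 and 0.812). In replicates 2 and 3 alone the log2 fold change of *Nog* was nearer to none, at -0.18 (SE 0.0936, unadjusted limma p 0.105).

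*Grem1* (chr2:113746164-113758646, minus strand) encodes Gremlin1, which binds Bmp2, Bmp4 and Bmp7 and is known from limb outgrowth. Its values were 2.82, 4.27 and 3.99 FPKM in controls and 3.14, 3.17 and 3.34 FPKM in mutants. Control replicate 1 was the lowest of all samples and the other controls the highest, so the log2 fold change of -0.14 (SE 0.135, 95% interval -0.46 to 0.18) depended on which pair was taken. In replicates 2 and 3 alone it was -0.27 (SE 0.101), with an unadjusted p of 0.0401 and an adjusted p of 0.501 by limma.

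**Figure D1:**
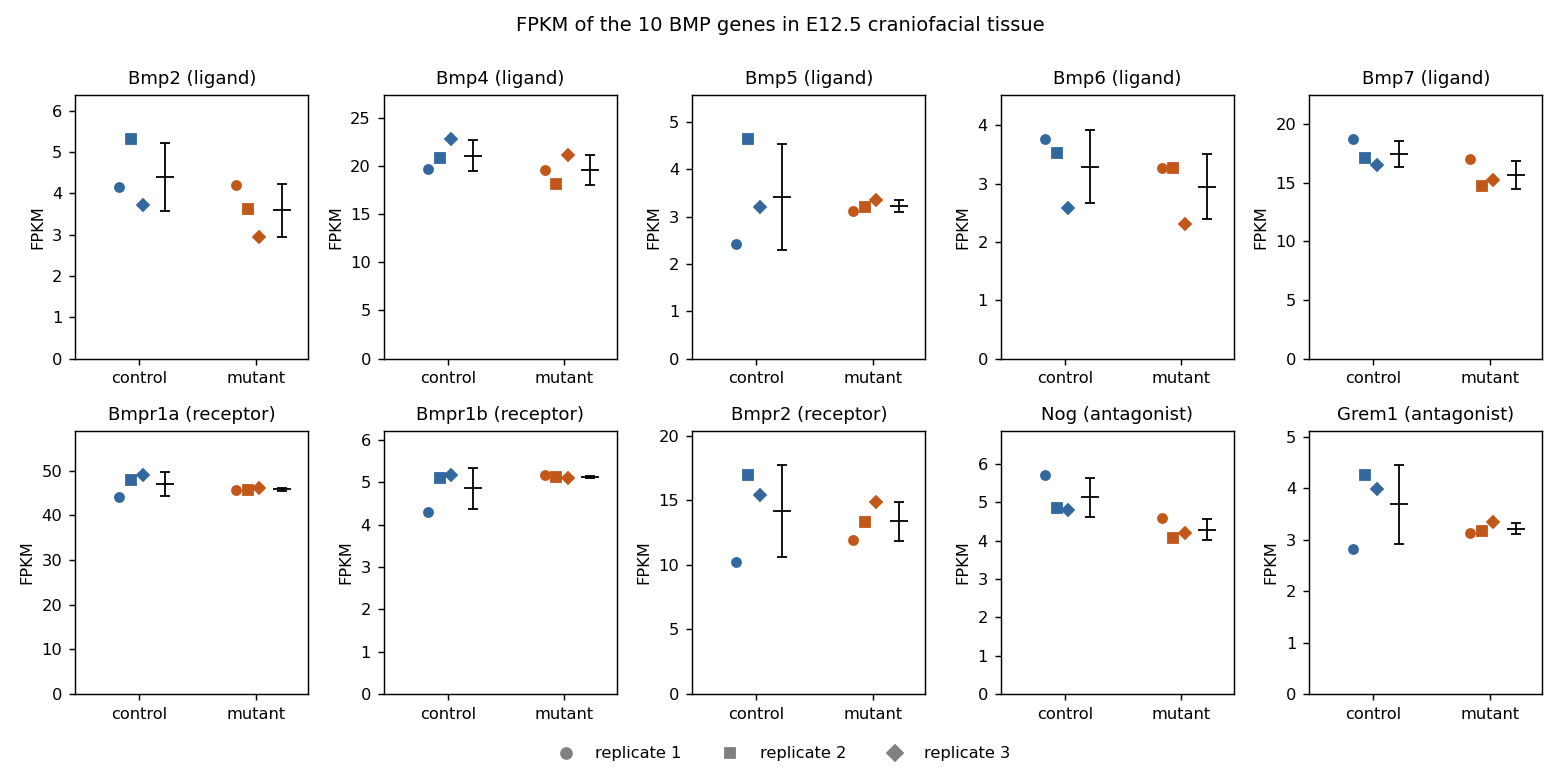
FPKM of each BMP gene (vertical axes, each from 0) in 3 control and 3 mutant samples, with the marker shape giving the replicate number and the black bar the mean ± SD (n = 3). In the *Nog* panel the mutants at 4.07 to 4.59 FPKM lie below the controls at 4.80 to 5.72 FPKM, and in the other 9 panels the groups overlap.

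The order of levels by mean FPKM over all samples was *Bmpr1a*, *Bmp4*, *Bmp7*, *Bmpr2*, *Bmpr1b*, *Nog*, *Bmp2*, *Grem1*, *Bmp5* and *Bmp6*. The ranges of neighbours in this order did not overlap between *Bmpr1a* and *Bmp4* or between *Bmpr2* and *Bmpr1b*. *Bmp4* was above *Bmp7* in 6 of 6 samples and *Bmp7* above *Bmpr2* in 6 of 6, although their ranges overlapped. At the low end, *Grem1* was above *Bmp5* in 3 of 6 samples and *Bmp5* above *Bmp6* in 3 of 6, so these genes did not differ beyond their spread. Standard deviations were smaller in mutants than in controls for 8 of the 10 genes, *Bmp4* and *Bmp7* being the exceptions. The share over all genes was not determined, so whether this is particular to BMP genes is unknown. The mutant SD of *Bmpr1b* was 0.0384 FPKM against 0.488 FPKM in controls.

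No BMP gene passed an adjusted p of 0.05 in limma. The counts were 0 of 5 in the fit named in the design (background 0% of 10061 genes, smallest adjusted p 0.138). In the wider fit they were 0 of 10 (background 0% of 14978 genes). The deleted gene *Rbfox2*, with a log2 fold change of -0.75, did not pass either (adjusted p by limma 0.138 and 0.195). These 2 fits thus missed a known deletion, and the absence of calls in them says little about the BMP genes. *Rbfox2* passed with a term for the first replicates and in replicates 2 and 3 alone (adjusted p by limma 0.0296 and 0.0328). No BMP gene passed in those fits either (*Bmp7* 0.771 and 0.472). At an unadjusted p under 0.05 the counts were 0 of 5 BMP genes against 167 genes in all (1.66%) and, in the wider fit, 0 of 10 against 338 (2.26%). With the replicate number as a block, *Bmp7* and *Nog* passed an unadjusted p of 0.05, 2 of 10 against 910 of 14978 (6.08%), and no gene passed the adjusted threshold (0%). Every 95% interval of the 10 genes included 0, and for *Bmp5*, *Bmp6*, *Bmpr1a*, *Bmpr1b* and *Bmpr2* the log2 fold change was smaller than its standard error. The lower ends of the intervals reached from -0.16 in *Bmpr1b* to -0.59 in *Bmp2* in the wider fit, so decreases of that size are not excluded by these samples.

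The log2 fold change was below 0 in 9 of 10 BMP genes, against 49.5% of all genes in the wider fit, and the median was -0.11 against 0.001 for all genes. Embryo sex is not given in the sample labels, and the paper lists an *Xist* transcript as lower in mutants. With a covariate of Y-linked genes the median of the 10 genes was -0.0613. The part of sex in these differences was not tested. The median size of the difference was 0.11 for the 10 genes and 0.0636 for all genes. By replicate number, the mutant was below the control in 4 of 10 genes at number 1, 9 of 10 at number 2 and 9 of 10 at number 3, against 52.2%, 51.0% and 48.2% of all genes. *Bmp4*, *Bmp6*, *Bmp7* and *Nog* were below at all 3 numbers, 4 of 10 against 14.2% of all genes. No source ties the numbers into pairs, and this count depends on them. With numbers 2 and 3 crossed, mutant replicate 3 of *Bmp4* (21.2 FPKM) was above control replicate 2 (20.8 FPKM). Mutant replicate 2 of *Bmp6* (3.27 FPKM) was then above control replicate 3 (2.58 FPKM). The mutants were below the controls without overlap in 1 of 10 genes, *Nog*, against 3.21% of all genes. These genes share samples and vary together, so the counts describe these 6 samples and are not a test of the group.

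**Figure D2:**
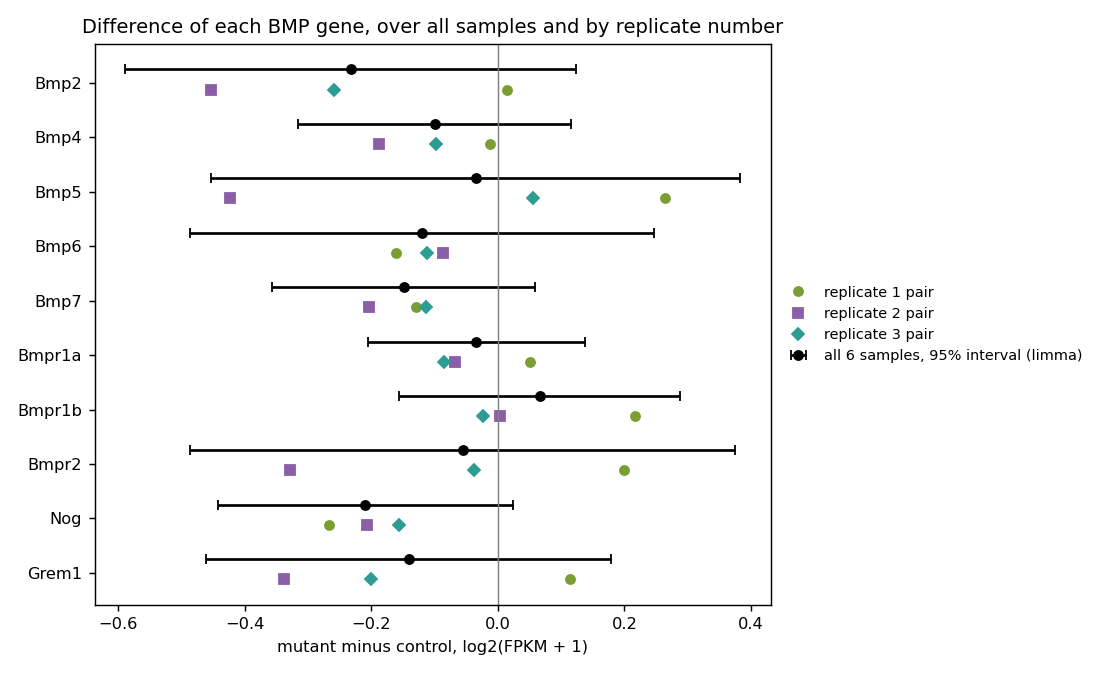
Mutant minus control on log2(FPKM + 1) for each BMP gene (horizontal axis). Black points and bars are the estimates and 95% intervals of the wider limma fit over all 6 samples, and the colored markers are the differences within each replicate number. All 10 intervals cross 0, and *Bmp4*, *Bmp6*, *Bmp7* and *Nog* have all 3 markers below 0. No source ties the replicate numbers into pairs.

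Summed over roles, the 5 ligands came to 48.8, 51.4 and 48.8 FPKM in control replicates 1, 2 and 3 and 47.1, 42.9 and 45.0 FPKM in mutants. *Bmp4* and *Bmp7* made up most of these sums. The 3 receptors came to 58.5, 70.1 and 69.7 FPKM in controls and 62.7, 64.2 and 66.3 FPKM in mutants, within the control range. *Nog* and *Grem1* together came to 8.54, 9.12 and 8.79 FPKM in controls and 7.73, 7.24 and 7.55 FPKM in mutants. The sums of the 5 ligands and of *Nog* and *Grem1* did not overlap between the groups, while that of the receptors did. How often sums of other genes fail to overlap was not determined. The antagonist sum leaves out the further antagonists. Of these, the more abundant *Fstl1* and *Nbl1* overlapped between the groups, while *Chrd* and, named after its values were seen, *Fst* did not. No p is given for these sums, whose members were chosen with earlier results of these samples known.

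Markers of other cell types moved with the groups in part. The 5 neuronal markers were *Tubb3*, *Elavl3*, *Stmn2*, *Map2* and *Dcx*. Their sums were 582 to 684 FPKM in controls and 722 to 830 FPKM in mutants, without overlap. How often sums of other genes fail to overlap is, as above, unknown. In the wider fit, 4 of the 5 had an unadjusted limma p under 0.05, against 2.26% of all genes, and none passed the adjusted threshold. The 2 otic markers *Oc90* and *Otx1* ranged over 7.56 to 18.7 FPKM in controls and 17.5 to 36.3 FPKM in mutants, and 3 choroid plexus markers over 1.60 to 58.5 FPKM and 25.7 to 70.7 FPKM. The 6 markers of facial mesenchyme, all above 1 FPKM in every sample, summed to 356 to 407 FPKM in controls and 323 to 401 FPKM in mutants. The 8 epithelial markers were lowest in the first replicates, at 135 FPKM in the control and 137 FPKM in the mutant, and ranged to 245 FPKM in controls and 194 FPKM in mutants. The summed markers of forebrain, cartilage, skeletal muscle, red blood cells, endothelium and macrophages overlapped between the groups. The part of these cell types in the BMP differences was not tested.

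**Figure D3:**
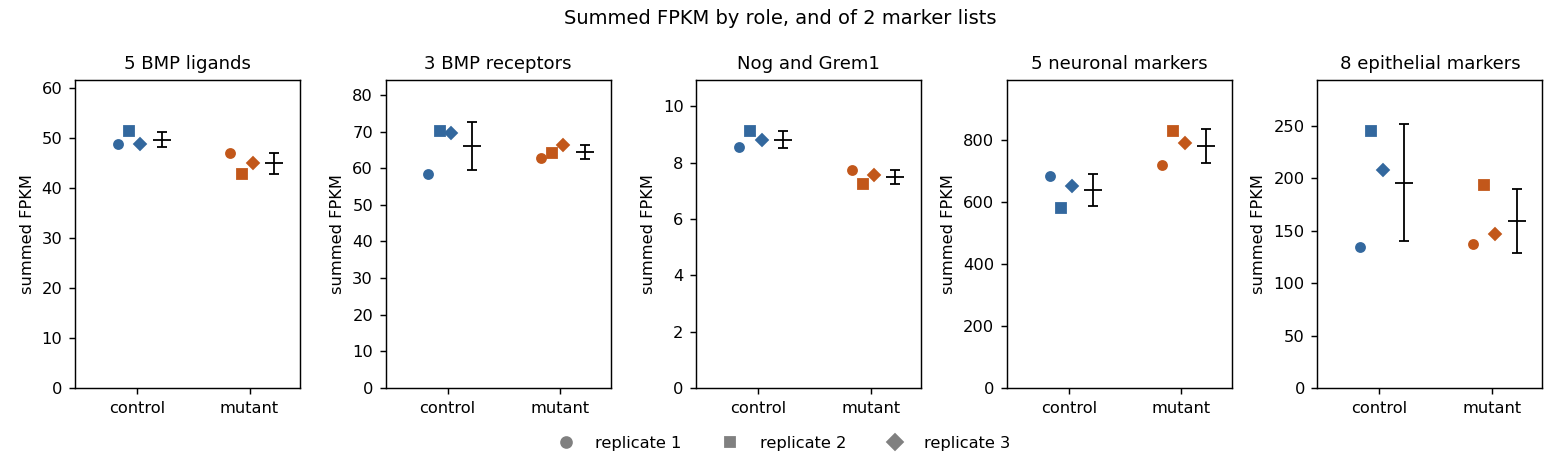
Summed FPKM (vertical axes, each from 0) of the BMP ligands, receptors and antagonists and of the neuronal and epithelial markers in each sample, with the marker shape giving the replicate number and the bar the mean ± SD (n = 3). Ligand and antagonist sums are lower and neuronal sums higher in all mutants than in all controls, and the receptor and epithelial sums overlap.

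The wider pathway was read from a list of 50 further genes, of which 42 had a mean FPKM over 0.5. None passed the adjusted threshold, 1 of 42 passed an unadjusted p of 0.05 (background 2.26%), and 28 of 42 had a log2 fold change below 0 (background 49.5%), with a median of -0.04. That gene was *Chrd*, at 3.32, 3.44 and 3.18 FPKM in control replicates 1, 2 and 3 and 2.63, 2.19 and 1.92 FPKM in mutants. Chordin binds BMPs in the extracellular space, is cut by the protease Bmp1 and acts alongside Noggin in head and jaw development. All *Chrd* mutants lay below all controls, with a log2 fold change of -0.42 (SE 0.109, 95% interval -0.67 to -0.16), an unadjusted p of 0.0065 and an adjusted p of 1.0 by limma. With the replicate number as a block, 4 of 42 passed an unadjusted p of 0.05 (background 6.08%), *Chrd* and *Hfe2* lower and *Rgmb* and *Acvr2b* higher, and none the adjusted threshold. *Hfe2*, which encodes the co-receptor hemojuvelin, is named after its values were seen. Groups did not overlap in 3 of 42 genes against 6.08% of all genes. Beside *Chrd*, and named after their values were seen, these were *Fst* (Follistatin, which binds activins and some BMPs), at 8.85 to 9.03 FPKM in controls and 7.82 to 8.69 FPKM in mutants, and *Acvr2b* (a type II receptor for activins and BMPs), at 8.13 to 10.3 FPKM in controls and 10.5 to 11.7 FPKM in mutants.

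By role, 12 of 13 further antagonists tested had a log2 fold change below 0 and only *Chrdl1*, which encodes a Chordin-like protein and is named after its value was seen, was above. The most abundant antagonist was *Fstl1*, a secreted follistatin-like protein, at 239 ± 38.2 FPKM in controls and 220.0 ± 20.5 FPKM in mutants (n = 3 each), followed by *Nbl1*, a DAN-family antagonist, at 56.7 ± 6.74 and 54.0 ± 1.08 FPKM. In both, the first mutant was above the first control and the other mutants below. Of 7 further receptors and co-receptors, 5 were above 0 and 2 below. *Rgma* and *Rgmb*, co-receptors that bind BMPs, averaged 29.5 ± 5.11 and 20.5 ± 4.79 FPKM in controls and 32.5 ± 4.94 and 23.9 ± 3.98 FPKM in mutants. *Rgmb* was higher in the mutant at all 3 replicate numbers, with overlap between the groups and a log2 fold change of 0.22 (SE 0.176). With the replicate block its SE was 0.0616 and its unadjusted limma p 0.0119, with an adjusted p of 0.769.

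Further ligands were scarce in this tissue. *Bmp3*, a ligand that opposes other BMPs, averaged 2.77 ± 0.475 FPKM in controls and 2.44 ± 0.524 FPKM in mutants, and *Gdf5*, a joint-forming ligand, 2.26 ± 0.261 and 2.46 ± 0.327 FPKM, while *Bmp8a*, *Bmp8b*, *Bmp10*, *Bmp15* and *Gdf2* were below the mean FPKM of 0.5. Of the Smads and their regulators, 6 of 8 were below 0 and 2 above. *Smad4*, the shared partner, read 42.4 ± 1.71 FPKM in controls and 43.7 ± 2.14 FPKM in mutants, and *Smad5*, which receptors phosphorylate, 39.5 ± 3.15 and 38.0 ± 5.28 FPKM. The protease *Bmp1*, which cuts Chordin, averaged 38.7 ± 4.38 FPKM in controls and 35.7 ± 2.72 FPKM in mutants, and the related *Tll1* 1.59 ± 0.332 and 1.47 ± 0.0916 FPKM.

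Of 8 genes that respond to BMP signals, 5 were below 0 and 3 above, with a median log2 fold change of -0.03, and none passed an unadjusted p of 0.05. *Id3*, an inhibitor of basic helix-loop-helix factors, averaged 171 ± 16.7 FPKM in controls and 167 ± 19.5 FPKM in mutants. Its log2 fold change was -0.04 (SE 0.117), and that of *Id2*, which averaged 101 ± 7.3 and 97.5 ± 4.85 FPKM, was -0.05 (SE 0.0865). *Id4*, of the same family and named after its values were seen, had an estimate above 0, at 83.7, 33.6 and 52.6 FPKM in controls and 66.6, 63.0 and 56.3 FPKM in mutants. Its log2 fold change was 0.22 (SE 0.292) over all samples and 0.49 (SE 0.191, adjusted p by limma 0.434) in replicates 2 and 3 alone, with the mutants inside the control range. These genes answer to other signals as well, so their levels are no direct reading of BMP activity.

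**Figure D4:**
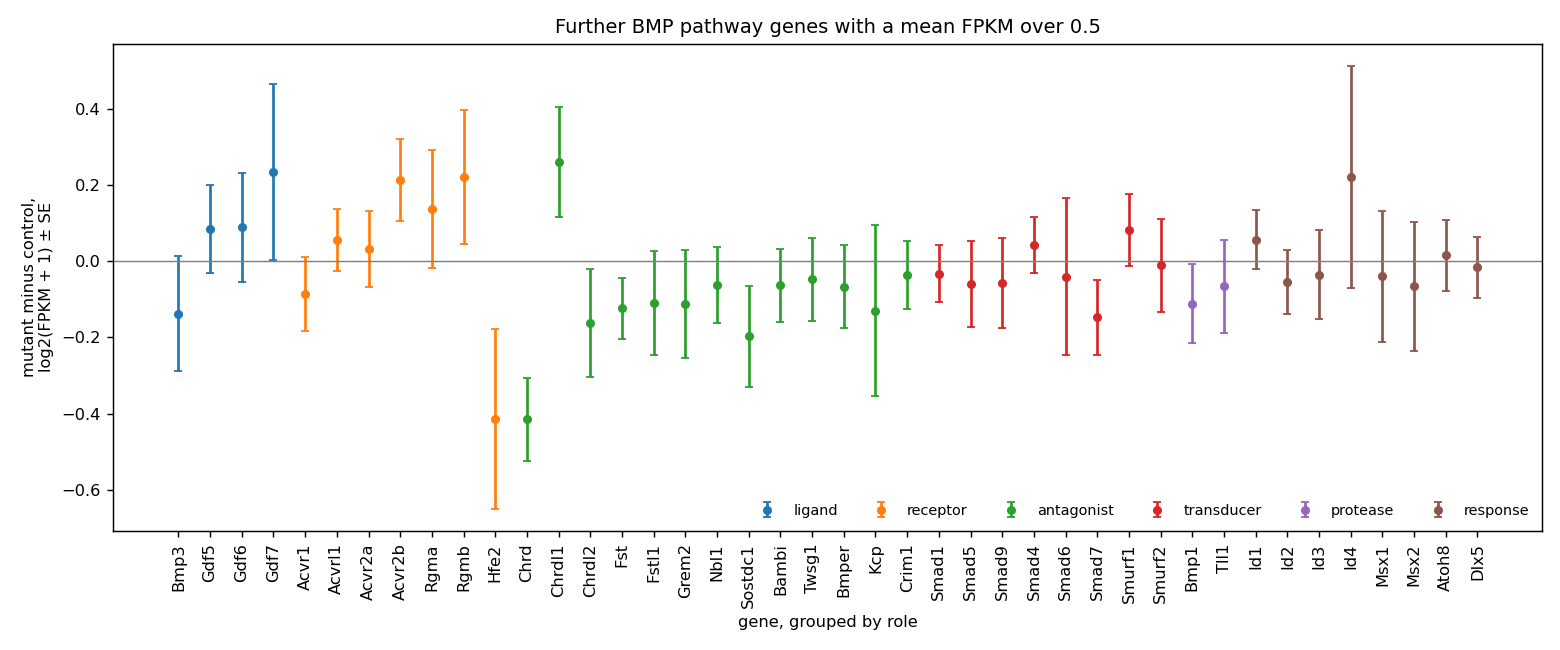
Mutant minus control on log2(FPKM + 1) (vertical axis) for the 42 further pathway genes with a mean FPKM over 0.5, grouped and colored by role, with bars of ± 1 SE from the wider limma fit. *Chrd* at -0.42 is the only gene with an unadjusted p under 0.05, and 12 of 13 antagonists lie below 0.

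The genes whose FPKM followed *Bmp7* most closely over the 6 samples in the fit named in the design were *Sec61a2* (Pearson r 0.9953), *Ddhd2* (0.9912) and *4833420G17Rik* (0.9896). They were picked as the highest of 10061 genes on few samples, so the values are a description. *Sec61a2*, which encodes a subunit of the protein channel of the endoplasmic reticulum, read 36.0, 29.1 and 26.0 FPKM in controls and 29.4, 19.0 and 20.3 FPKM in mutants. In *Sec61a2* as in *Bmp7*, control replicate 1 was the highest sample and mutant replicate 2 the lowest.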

How the data were processed

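Poly(A)+ RNA-Seq of E12.5 craniofacial tissue was used from 3 controls and 3 *Rbfox2* mutants, grouped by their labels. The authors aligned reads with STAR to GRCm38 and deposited FPKM values per gene and sample; FastQC 0.11.4 and Cuffdiff are named in the submitters' processing notes, and the annotation and the step assigning reads to genes are not given in the sources used here. Read counts could not be recovered. Values were compared as log2(FPKM + 1) (pseudocount 1) by limma-trend (limma 3.58.1, R 4.3.3), after checks on simulated data. Filters were an FPKM over 5 in all controls or all mutants, and, in a wider fit, a mean FPKM over 0.5. Coordinates and transcripts came from GENCODE M21.

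The 10 genes and all lists were chosen with earlier results of these data known. Named genes were the 10, further pathway genes with an unadjusted p under 0.05, the 2 most abundant of each role, 3 genes most like *Bmp7*, *Rbfox2* and *Pax3*. A few others are named where the text says that their values had been seen. Deviations from group means of same-numbered samples correlated at 0.644, 0.258 and 0.513 across genes. The numbers were taken as pairs in the replicate block and in the differences by number, while the design's fit and the wider fit did not use them. Control replicate 3 and mutant replicate 2 correlated at 0.401 and control replicate 2 and mutant replicate 3 at 0.234, so the pairing mainly set the first replicates apart. The methods say that littermates were used in general, but no source ties a litter to a replicate number. Alternatives covered pseudocount, scaling, filters, trend, replicate block, a term for the first replicates, a covariate of Y-linked genes and samples left out.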

Additional observations from a re-analysis of the deposited data

How the results depend on the processing

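No BMP gene passed an adjusted p of 0.05 under any alternative run. *Bmp2*, *Bmp7*, *Bmpr1a*, *Nog*, *Grem1* and *Chrd* kept their direction under all alternatives run, but not their size. With samples left out in turn they ranged from -0.329 to -0.1138 in *Bmp2* (smallest without control replicate 2), -0.2823 (without control replicate 1) to -0.0507 (without control replicate 2) in *Grem1* and -0.0801 (without control replicate 1) to -0.0024 (without control replicate 3) in *Bmpr1a*. The Y-linked covariate gave -0.4484 in *Bmp2* and -0.366 in *Bmp6*. The sign turned with the Y-linked covariate in *Bmp4* (0.0093), *Bmp5* (0.0072) and *Bmpr2* (0.0968), and with replicates 2 and 3 only in *Bmpr1b* (-0.0097). With samples left out in turn, the log2 fold change ranged from -0.2029 to 0.1556 in *Bmp5*, -0.2459 to 0.0014 in *Bmp6*, -0.0049 to 0.1062 in *Bmpr1b* and -0.2592 to 0.0803 in *Bmpr2*. The sign turned without control replicate 2 in *Bmp5*, mutant replicate 3 in *Bmp6*, control replicate 1 in *Bmpr1b* and control replicate 2, control replicate 3 or mutant replicate 1 in *Bmpr2*. These fits kept the genes of the full fit.

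At an unadjusted p under 0.05, the replicate block gave 1 BMP gene of 5 (2 of 10 in the wider fit), 4 further pathway genes and 604 genes in all, and changed no other call. The term for the first replicates gave 1, 2, 3 and 611, with 3 genes past the adjusted threshold, *Rbfox2* among them. Replicates 2 and 3 only gave 1 of 10 BMP genes, 5 pathway genes and 1103 genes, with 4 past the adjusted threshold, *Rbfox2* among them. The BMP median was then -0.1433 over the 5 genes of the design's fit and -0.1696 over all 10 (-0.0557 and -0.1099 with all samples). The Y-linked covariate gave medians of 0.0093 and -0.0613. Filters at an FPKM of 1 and without a minimum gave 304 and 663 genes. A mean FPKM over 5 removed *Chrd* (mean 2.78 FPKM) from the test, so 0 pathway genes were called. It also removed *Bmpr1b*, which had entered the design's fit only through the mutants, and the BMP median was then -0.0776. Leaving out 1 sample gave 0 to 1 of 10 BMP genes, 1 to 4 pathway genes, 78 to 649 genes (0 to 1 adjusted) and a BMP median of -0.1313 to -0.0024 over the 5 genes and -0.1425 to -0.0631 over all 10. The count over all genes was lowest without control replicate 2 and highest without control replicate 1, and the gene past the adjusted threshold appeared without mutant replicate 3. The cause was not tested. Depth behind single values is unknown, which limits genes under 5 FPKM most.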
